A study of Mus musculus with 8 samples.

Results

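The clade A serpins are a family of secreted plasma proteins whose genes, in the mouse, mostly lie side by side on chromosome 12. The group described here is Serpina4-ps1, a transcribed serpin pseudogene, with Serpina1a, Serpina1b, Serpina1c, Serpina1d, Serpina1e, Serpina3k, Serpina6, Serpina10 and Serpina12. Members were taken as the features (spots) of the array whose annotated gene symbol is one of these names. This gave 9 genes with 14 features, of 20738 named genes and 62976 features in all, and Serpina1b was not analysed here. The group was chosen by the low level of Serpina4-ps1 on the NaPB diet, so that gene's difference between diets is given as a description, without a test. The other genes came in as its relatives, from the same contrast and with results of these data known, so their p-values are values of the fit and are not used as support.

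Liver RNA came from male CD-1 mice, an outbred stock, fed for 7 days a diet with 2500 ppm NaPB (4 arrays) or a control diet with 0 ppm (4 arrays). NaPB is sodium phenobarbital, a barbiturate that acts on hepatocytes through the nuclear receptor CAR. Each sample was hybridised to a single-colour Agilent array, and the authors' deposited table gives linear intensities on which each array's 75th percentile is close to 1. The comparison asks which liver transcripts differ between the diets. The labels do not tie each array to its own mouse, so a p-value here speaks of the spread among these arrays alone, which may be technical, and their number limits the precision.

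A serpin carries an exposed loop that a target protease cleaves as bait, after which the serpin snaps into a new fold and traps the enzyme. Hepatocytes make and secrete much of the plasma pool. The proteins of the Serpina1 genes are the mouse forms of alpha-1-antitrypsin, best known as an inhibitor of neutrophil elastase. Serpina3k encodes contrapsin, a trypsin inhibitor, and Serpina10 encodes the inhibitor of factor Xa that works with protein Z. Serpina12 encodes vaspin, described mainly from fat tissue. Serpina6 encodes corticosteroid-binding globulin, which inhibits no protease and carries glucocorticoids in blood. Serpina4-ps1 is named after SERPINA4, the human gene of kallistatin, and is annotated as a transcribed pseudogene.

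The Serpina1 genes are recent copies of each other, and their promoters are shown because they make plain how alike the copies are. Of the 10 members, 6 have an entry in the RefSeq promoter table (GRCm38.p6), which runs from 250 bases before to 50 bases after the annotated start; Serpina4-ps1, Serpina3k, Serpina6 and Serpina10 are not among them. The 4 Serpina1 promoters with array values follow, 5′ to 3′ on the strand of the gene. Capitals mark GTTAAT, the core of the motif of HNF1, a hepatocyte transcription factor.
Serpina1a (GRCm38.p6, chr12:103863570-103863869, minus strand): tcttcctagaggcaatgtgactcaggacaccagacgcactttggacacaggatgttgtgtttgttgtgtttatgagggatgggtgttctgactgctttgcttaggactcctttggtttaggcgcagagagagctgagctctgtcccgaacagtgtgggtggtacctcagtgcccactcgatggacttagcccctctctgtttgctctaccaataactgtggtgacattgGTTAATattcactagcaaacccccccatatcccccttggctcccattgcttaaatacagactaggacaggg
Serpina1c (GRCm38.p6, chr12:103904901-103905200, minus strand): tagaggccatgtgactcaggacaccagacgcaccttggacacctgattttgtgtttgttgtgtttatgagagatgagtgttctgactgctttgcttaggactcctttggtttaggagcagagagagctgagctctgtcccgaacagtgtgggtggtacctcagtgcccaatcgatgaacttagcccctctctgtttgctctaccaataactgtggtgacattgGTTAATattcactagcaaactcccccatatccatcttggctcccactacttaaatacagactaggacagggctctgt
Serpina1d (GRCm38.p6, chr12:103773584-103773883, minus strand): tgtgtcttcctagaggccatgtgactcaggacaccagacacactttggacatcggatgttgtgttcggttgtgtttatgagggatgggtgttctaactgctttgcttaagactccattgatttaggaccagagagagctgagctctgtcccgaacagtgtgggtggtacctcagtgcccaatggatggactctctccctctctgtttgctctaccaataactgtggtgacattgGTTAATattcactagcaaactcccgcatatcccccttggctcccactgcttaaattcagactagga
Serpina1e (GRCm38.p6, chr12:103956848-103957147, minus strand): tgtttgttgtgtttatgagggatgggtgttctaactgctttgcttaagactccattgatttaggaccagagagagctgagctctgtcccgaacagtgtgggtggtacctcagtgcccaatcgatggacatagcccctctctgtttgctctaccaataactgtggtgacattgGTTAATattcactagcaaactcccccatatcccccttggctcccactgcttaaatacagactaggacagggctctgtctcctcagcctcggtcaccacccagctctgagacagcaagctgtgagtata
In pairwise alignments the 5 Serpina1 promoters, Serpina1b included, were identical at 91.7% to 98.4% of aligned bases. GTTAAT occurred once in each of the 5, on the strand of the gene, and on neither strand of the Serpina12 promoter. On either strand it is found in 7.1% of the 32851 promoters of the table. Its distance from the annotated start differed, from position -16 to -11 in Serpina1d to -78 to -73 in Serpina1e, where the annotated start lies further along the shared sequence. ATTGATT, the core of the motif of the liver factor HNF6, occurred in Serpina1b, Serpina1d and Serpina1e and was not in the letters of Serpina1a, Serpina1c or Serpina12; it is found in 2.86% of all promoters. TTCNNNGAA, the motif of STAT5, which acts in growth hormone response, was not in the letters of these 6 windows and is found in 8.3% of all promoters. A match is a run of letters, on either strand, and no overlap between the HNF1 and HNF6 motifs occurred. Features for such close copies may hybridise with more than 1 transcript, so the values of the Serpina1 genes cannot be assigned to single genes with certainty.

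Across genes, the median correlation of an array with the other arrays was lowest for control replicate 1, at 0.914, and lay between 0.931 (NaPB replicate 4) and 0.950 for the rest. Hepatocyte markers (7 of 8 listed genes measured, among them Alb and Ttr) had summed intensities of 2169 to 2689 with NaPB and 1969 to 3572 with the control diet, none at the floor (at most 2 times an array's minimum). Of the 7, Alb and Apoa1 were lower with NaPB without overlap, with geometric means of 191 and 201 on the NaPB diet, against 452 and 402 on the control diet, and did not pass (limma adjusted p of 0.19 and 0.167). Fgb, also an acute phase gene, read 680 on NaPB replicate 4 and 161 to 191 on the other NaPB arrays. On NaPB replicate 4 Alb, Ttr and Apob read 109, 103 and 194.5, for each the lowest of the 8 arrays. Neutrophil markers (6 of 7) summed to 11.4 to 130 with NaPB and 3.25 to 5.09 with the control diet. S100a8 alone read 2.02 to 126 with NaPB and 0.246 to 0.464 with the control diet. The diets overlapped for S100a9, Mmp8, Mmp9, Camp and Ngp, with log2 fold changes of 0.84, -0.13, -0.73, 0.35 and 0.33. Mmp9 was at the floor on 4 NaPB and 3 control arrays. Kupffer cell markers (8 of 8) summed to 14.1 to 15.8 with NaPB and 20.4 to 22.1 with the control diet. The sums overlapped for endothelial cells (117 to 194 with NaPB, 93.4 to 192 with control), stellate cells (19.9 to 34.9 with NaPB, 27.5 to 46 with control) and cholangiocytes (2.66 to 4.02 with NaPB, 1.39 to 4.05 with control). They also overlapped for adipocytes (2.48 to 3.51 with NaPB, 1.66 to 3.39 with control) and exocrine pancreas (3.10 to 4.44 with NaPB, 3.16 to 4.43 with control). The endothelial sum was carried by 1 feature of Kdr, at 106 to 178 with NaPB and 80.3 to 170 with control. The other features of Kdr read 0.796 to 3.84. Amy2a5 gave the largest part of the exocrine pancreas sum, at 1.59 to 3.42 with NaPB and 1.95 to 3.02 with control. The dimmer feature of Amy2a5 did not overlap, at 2.74 to 4.10 with NaPB and 0.804 to 1.46 with control. The part of all these cell types in the serpin values was not tested, and in whole liver fewer cells of a type cannot be told apart from less RNA per cell.

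Serpina4-ps1, measured by 1 feature, was far lower on the NaPB diet. Its intensity was 0.323, 1.46, 1.76 and 2.49 on NaPB replicates 1 to 4, against 153, 34.4, 54.1 and 61.9 on control replicates 1 to 4. The diets were widely separated, with the highest NaPB array at 2.49 and the lowest control array at 34.4, and no array was at the floor. The value on NaPB replicate 1 was low, below the median of all features on that array, 0.350. The geometric means were 1.20 on the NaPB diet (log2 SD 1.30, n = 4) and 64.7 on the control diet (log2 SD 0.90, n = 4). This is a log2 fold change of -5.75, or a level 53.9-fold lower with NaPB. The spread within each diet was wide: NaPB replicate 1 and control replicate 1, at opposite ends of the range, were the arrays farthest from the means of their diets. Without NaPB replicate 1 the difference was 34.8-fold, and without control replicate 1 it was 40.5-fold. Without NaPB replicate 4 it was 68.8-fold.

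**Figure D1:**
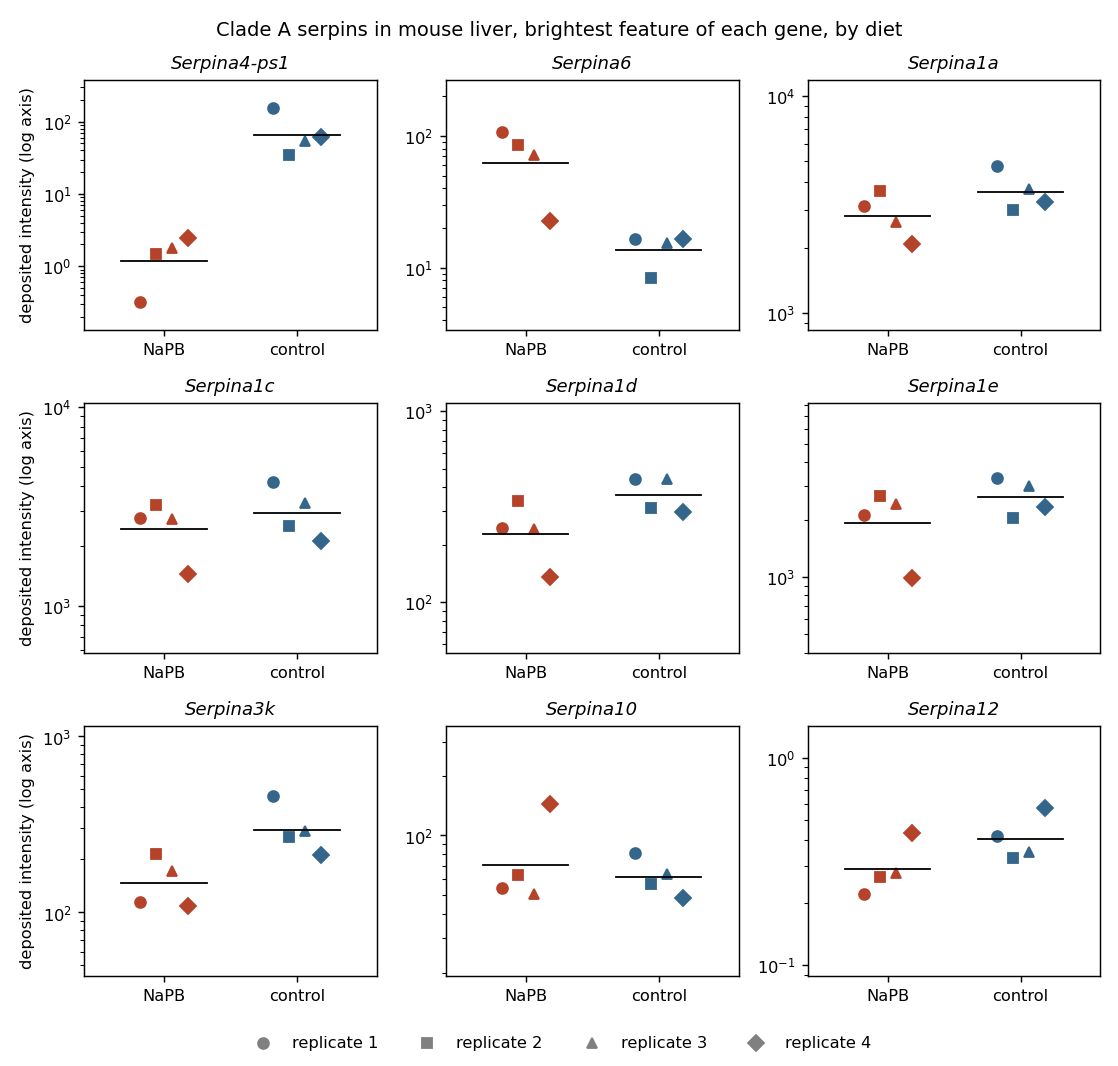
Deposited intensity (log axis, a scale of its own in each panel) of the brightest feature of each of the 9 measured genes on the 4 NaPB arrays (red, left) and the 4 control arrays (blue, right); symbols give the replicate number and bars the geometric means. Serpina4-ps1 lies between 0.323 and 2.49 on NaPB arrays and between 34.4 and 153 on control arrays, Serpina6 lies higher on every NaPB array than on any control array, and in the other 7 panels the diets overlap.

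The other 8 genes of the group were tested by limma across all 20738 genes with Benjamini-Hochberg adjustment. None passed at an adjusted p of 0.05, in either direction, against 1.01% of all genes (0.391% higher and 0.617% lower); 2 of the 8, Serpina6 and Serpina3k, had an unadjusted p under 0.05, as had 2095 of all 20738 genes. Of the 8, 2 had a log2 fold change above 0 and 6 one below 0, with a median of -0.41, beside a median of 0.01 over all genes. The diets were without overlap in 1 of the 8, Serpina6, which was higher, against 7.04% of all genes (2.72% higher and 4.31% lower).

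Serpina6, the glucocorticoid carrier, differed in the direction opposite to Serpina4-ps1. Its brighter feature read 107, 85.7, 72.2 and 22.8 on NaPB replicates 1 to 4, against 16.6, 8.35, 15.4 and 16.5 on control replicates 1 to 4. All NaPB arrays were above all control arrays, NaPB replicate 4 by the smallest margin. The level was 4.56-fold higher with NaPB, a log2 fold change of 2.19 ± 0.47 (SE, n = 4 per diet; 95% interval 1.15 to 3.23), which did not pass over all genes (limma adjusted p = 0.0616). Without NaPB replicate 4 it passed, 6.37-fold higher (limma adjusted p = 0.00512), in a fit that called 1.76% of all genes, 1.02% as higher. With any other single array left out it did not pass, the limma adjusted p lying at 0.103 when control replicate 1 was dropped, at 0.184 when NaPB replicate 1 was, and between these for the rest. The dimmer feature of Serpina6 read 17.1, 16.7, 12.3 and 3.39 on the NaPB arrays, against 3.93, 2.26, 3.89 and 3.16 on the control arrays. There NaPB replicate 4 lay within the control range, and the log2 fold change was 1.69 ± 0.49 (limma adjusted p over all features with a symbol = 0.196).

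The alpha-1-antitrypsin genes overlapped between the diets. Serpina1a read 3111, 3634, 2618 and 2089 on NaPB replicates 1 to 4, against 4740, 2990, 3734 and 3241 on control replicates 1 to 4. Serpina1c read 2784, 3225, 2751 and 1448 on the NaPB arrays, against 4225, 2542, 3317 and 2134 on the control arrays. Serpina1e read 2107, 2650, 2413 and 992 on the NaPB arrays, against 3292, 2041, 2997 and 2322 on the control arrays. For each of these genes the ranges overlapped, with NaPB replicate 4 lowest of the 8 arrays and control replicate 1 highest. Serpina1d read 245, 338, 242 and 135 on the NaPB arrays, against 443, 311, 439 and 296 on the control arrays, again with NaPB replicate 4 lowest. The log2 fold changes were -0.37 (95% interval -0.99 to 0.26) for Serpina1a, -0.27 (-1.02 to 0.48) for Serpina1c, -0.68 (-1.41 to 0.04) for Serpina1d and -0.45 (-1.23 to 0.33) for Serpina1e. None of the 4 passed, with limma adjusted p from 0.542 for Serpina1d to 0.86 for Serpina1c. A missed threshold does not show equal levels, and each interval holds differences as large as its lower bound. The second features of 3 of these genes gave log2 fold changes of 0.03 for Serpina1a, -0.15 for Serpina1d and -0.52 for Serpina1e, so that the features of Serpina1a disagreed in sign and those of Serpina1d in size. Under quantile normalization the log2 fold change of Serpina1c was 0.01.

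Within a diet, the Serpina1 genes went up and down together from array to array. Taken as deviations from the mean of its diet, each of the 6 pairs among the 4 genes had a Pearson correlation of 0.85 to 0.95 and a Spearman correlation of 0.79 to 0.95 over the 8 arrays. Without control replicate 1 and NaPB replicate 4 the Pearson correlations were 0.65 to 0.91 over 6 arrays. These are descriptions: the points share arrays, scaling and, for such close copies, perhaps transcripts. The 99th percentile of all features also differed between arrays. It was 108, 120, 103 and 60.6 on NaPB replicates 1 to 4, and 118, 64.1, 99.4 and 78.4 on control replicates 1 to 4. The part of this array-wide difference in the correlations was not tested. Serpina4-ps1 had Pearson correlations between -0.09 and 0.02 with the 4 Serpina1 genes over the 8 arrays. Over the 6 arrays they ran from 0.0086 with Serpina1a to 0.58 with Serpina1e.

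**Figure D2:**
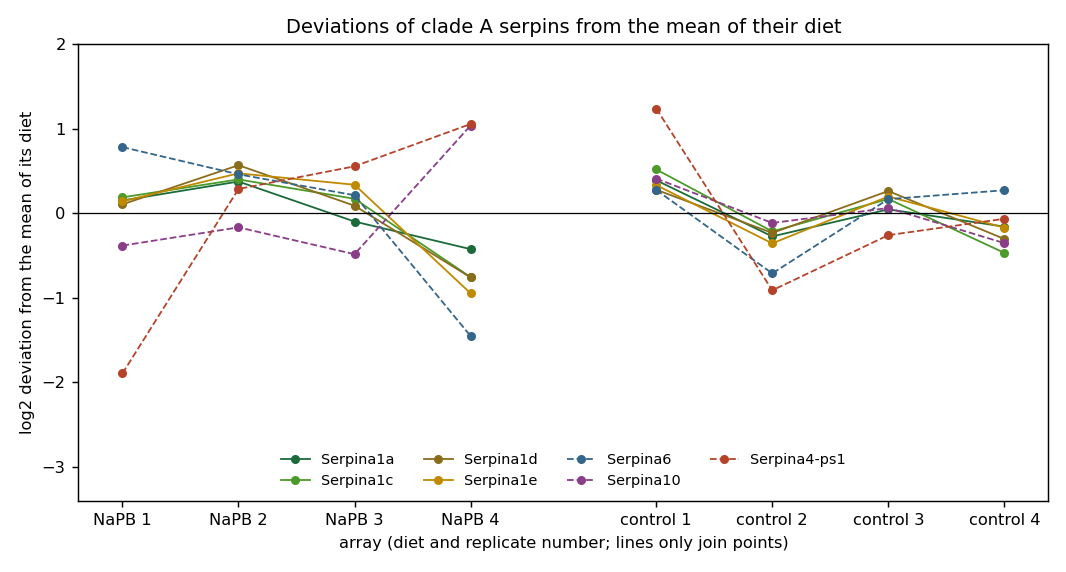
Deviation of log2 intensity from the mean of its diet (vertical axis) on each of the 8 arrays, NaPB arrays left and control arrays right, for the Serpina1 genes (solid lines), Serpina6, Serpina10 and Serpina4-ps1 (dashed lines); lines only join points. The Serpina1 lines run close together and fall below 0 on NaPB replicate 4, where Serpina10 and Serpina4-ps1 lie above 0.

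Serpina3k, the contrapsin gene, read 115, 215, 171 and 108 on NaPB replicates 1 to 4, against 461, 268, 291 and 211 on control replicates 1 to 4. The ranges met only in that NaPB replicate 2, at 215, lay above control replicate 4, at 211. The level was 2.02-fold lower with NaPB, a log2 fold change of -1.02 ± 0.34 (SE, n = 4 per diet), and did not pass (limma adjusted p = 0.273). With 1 array left out it lay between -1.20 and -0.80 and did not pass either.

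Serpina10, the protein Z-dependent inhibitor gene, read 54.3, 63, 50.6 and 145 on NaPB replicates 1 to 4, against 81.3, 56.5, 63.9 and 47.9 on control replicates 1 to 4. A single array, NaPB replicate 4, was above all others, and the remaining arrays of the diets overlapped. The log2 fold change was 0.21 ± 0.37 (limma adjusted p = 0.907) and was -0.14 without NaPB replicate 4. Its dimmer feature was also highest on that array, at 6.75, where the other NaPB arrays read 2.54 to 3.00 and the control arrays 2.94 to 3.75.

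Serpina12, the vaspin gene, was dim, below the 75th percentile on every array. It read 0.221, 0.267, 0.278 and 0.435 on NaPB replicates 1 to 4, against 0.419, 0.328, 0.353 and 0.572 on control replicates 1 to 4. The values overlapped through NaPB replicate 4, which lay above control replicates 1, 2 and 3. The log2 fold change was -0.49 ± 0.31 (limma adjusted p = 0.695), with a 95% interval of -1.17 to 0.18.

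The remaining members of the family were followed in a list of 17 other clade A genes, of which 15 were measured; Serpina3h and Serpina3m were not analysed here. None passed in limma, 4 had an unadjusted p under 0.05, and the median log2 fold change was 0.03. By the brightest feature the diets did not overlap for 4 of the 15, with 3 lower on NaPB and 1, Serpina3f, higher. Of all genes 7.04% did not overlap (4.31% lower and 2.72% higher). The dimmer feature of Serpina3f overlapped, at 0.182 to 0.385 with NaPB and 0.0636 to 0.455 with control (log2 0.31). Of the 15 genes, the 3 with the smallest p were all lower with NaPB. Serpina9, the gene of centerin, known in human from germinal centre B cells, read 0.28, 0.494, 0.277 and 0.11 on NaPB replicates 1 to 4, against 2.18, 0.915, 0.848 and 1.24 on control replicates 1 to 4. This was 4.72-fold lower (log2 -2.24 ± 0.47, limma adjusted p = 0.0544), and it passed without NaPB replicate 2 (limma adjusted p = 0.0424), where it was 5.89-fold lower. The fit without that array called 107 of all 20738 genes. Serpina7, the gene of thyroxine-binding globulin, another hormone carrier, read 0.19, 0.0578, 0.169 and 0.149 on the NaPB arrays, against 0.398, 0.388, 0.385 and 0.433 on the control arrays. It was 3.10-fold lower (log2 -1.63 ± 0.37, limma adjusted p = 0.0804), with NaPB replicate 2 at the floor. Serpina11 read 18.1, 27, 17.9 and 23.3 on the NaPB arrays, against 54.9, 42, 45.2 and 40.8 on the control arrays. It was 2.14-fold lower by its brighter feature (log2 -1.10 ± 0.26, limma adjusted p = 0.0946), and the dimmer one differed by -0.96 on the log2 scale with overlapping diets.

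On chromosome 12 the annotation places Serpina4-ps1 between Serpina12 and Serpina5. Going one way from it, Serpina12, Serpina9 and Serpina11 had log2 fold changes of -0.49, -2.24 and -1.10. Going the other way, Serpina5, the gene of protein C inhibitor, had one of 0.28 ± 0.26, and Serpina3a and Serpina3b had -0.26 and 0.21. Serpina6 stands near the far end of the cluster, next to Serpina10. Levels that differed in opposite directions stood within 1 cluster, and the immediate neighbours of Serpina4-ps1 on both sides overlapped between the diets. 2 measured genes of the family lie elsewhere, Serpina7 on the X chromosome and Agt, the gene of angiotensinogen, on chromosome 8. The log2 fold change of Agt was -0.01 ± 0.28.

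**Figure D3:**
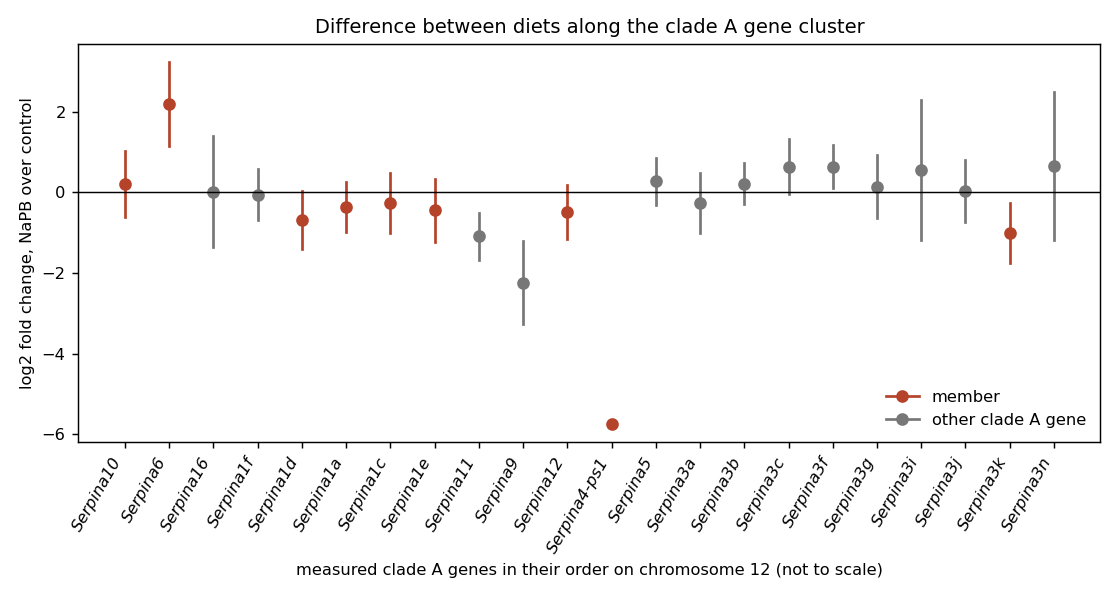
Log2 fold change of NaPB over control (vertical axis) for the measured clade A genes in their annotated order on chromosome 12 (not to scale), members in red and other genes in grey; bars are limma 95% intervals, left out for Serpina4-ps1, which chose the group. Serpina4-ps1 stands at -5.75, between Serpina12 at -0.49 and Serpina5 at 0.28, and Serpina6 at 2.19.

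NaPB replicate 4 differed from the other NaPB arrays in opposite directions within the family. Serpina3n, whose product is an acute phase serpin of mouse liver, read 38.1 on NaPB replicate 4, where the other NaPB arrays read 1.67 to 2.48 and the control arrays 2.17 to 3.59. Serpina3i read 20.6 on that array by its brighter feature, 1.17 to 1.59 on the rest of the NaPB arrays and 1.24 to 2.45 with the control diet. Its dimmer feature read 0.462 there, 0.0957 to 0.25 on the rest of the NaPB arrays and 0.126 to 0.385 with the control diet. The log2 fold change of that feature over all arrays was -0.09. Both genes were named after their values were seen. Serpina10 was 2.61-fold above the geometric mean of the other NaPB arrays there, while the ratio was 0.261 for Serpina6, 0.417 for Serpina1e, 0.496 for Serpina1d, 0.497 for Serpina1c and 0.675 for Serpina1a. Bright features as a whole were dim on NaPB replicate 4: its 99th percentile of all features, 60.6, was the lowest of the 8 arrays. NaPB replicates 1, 2 and 3 had 99th percentiles of 108, 120 and 103. The part of this array-wide difference in the ratios below 1 was not tested. Most of the known acute phase genes listed were high on NaPB replicate 4. Of 12 such genes, chosen after the data were seen, 11 were highest of all 8 arrays on NaPB replicate 4. The share of all genes highest on that array was not counted. Saa1 read 1714 there, where the other NaPB arrays read 16.9 to 25.4 and the control arrays 15.9 to 46.3. Hpx, Apcs and Hp were 1.73-fold, 1.88-fold and 2.07-fold above the next NaPB array. Cp went the other way, at 39.0, where the other NaPB arrays read 62.3 to 82.5 and the control arrays 34.8 to 66.9. The part of these acute phase genes in the serpin values of that array was not tested. By the brightest feature, the log2 fold changes of Serpina3n and Serpina3i were 0.65 and 0.55 with all arrays and -0.40 and -0.42 without NaPB replicate 4. None of these passed.

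**Figure D4:**
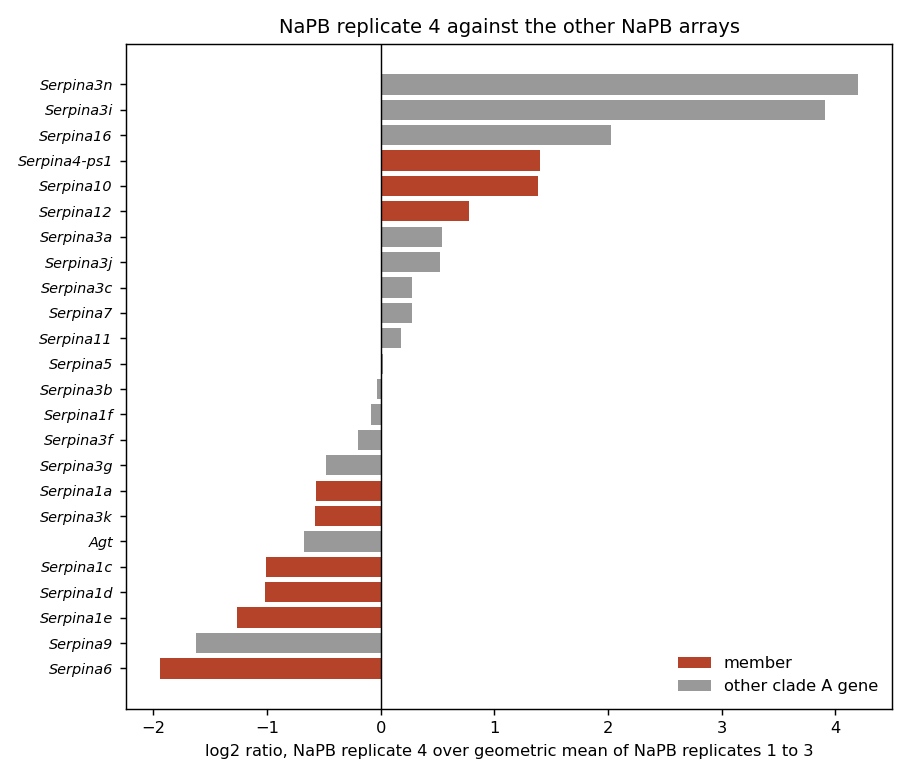
Log2 ratio of NaPB replicate 4 to the geometric mean of NaPB replicates 1 to 3 (horizontal axis) for members (red) and other clade A genes (grey). Serpina3n and Serpina3i stand at the upper end, Serpina10 and Serpina4-ps1 above 0, and the Serpina1 genes and Serpina6 below 0.

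The genes whose deviations from the diet means were most like those of Serpina4-ps1 were sought among 9785 named genes at or above the median intensity. The highest Pearson correlations over the 8 arrays were those of AA986860 (0.96), Slc26a4, the anion exchanger gene of pendrin (0.96), Nrgn, the gene of neurogranin (0.93), Cfap61, a gene of cilia (0.93), and Myo15b, a myosin gene (0.93). Their Spearman correlations were between 0.83 and 1. Without NaPB replicate 1 and control replicate 1, the arrays farthest from the median, the Pearson correlations of these 5 genes were 0.86 to 0.94. The lowest were those of Acer3, Rnf115 and Fabp4, each at -0.93. These are the extremes of many comparisons over 8 arrays that share their scaling, and they are given without a p. Of the 5 genes at the upper end, Cfap61 was also lower with NaPB by the fit, with a geometric mean of 0.415 on the NaPB diet and 1.30 on the control diet (log2 -1.65 ± 0.27, limma adjusted p = 0.0186), and the other 4 did not pass. Within the family, Serpina3c (0.82) and Serpina12 (0.63) had the highest such correlations with Serpina4-ps1.

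Serpins of other clades were set beside the family in a list of 18, of which 16 were measured. None passed in limma, 1 had an unadjusted p under 0.05, and the median log2 fold change was -0.11. The smallest p was that of Serping1, the gene of C1 inhibitor, at 31.1, 33.5, 21.2 and 35 on the NaPB arrays, against 56.5, 37.9, 67.6 and 44.1 on the control arrays (log2 -0.76 ± 0.29, limma adjusted p = 0.379). Serpinb1a and Serpinb6a, of the intracellular clade B, followed with log2 fold changes of 0.80 and 0.50. Serpinc1, the antithrombin gene, had one of 0.03 ± 0.27, with a 95% interval of -0.57 to 0.63.

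Among 14 genes of proteases that these serpins act on and of their cofactors, secretion and clearance, none passed in limma, 3 had an unadjusted p under 0.05, and the median log2 fold change was -0.14. By their brightest features these 3 did not overlap between the diets and were lower with NaPB, as were 4.31% of all genes. F11, the gene of coagulation factor XI, read 2.45, 2.27, 2.25 and 1.98 on the NaPB arrays, against 5.89, 4.03, 5.08 and 3.47 on the control arrays (log2 -1.02 ± 0.26, limma adjusted p = 0.129). Lrp1, the endocytic receptor that clears serpin-protease complexes, had a log2 fold change of -0.85 ± 0.27, and Klkb1, the gene of plasma kallikrein, one of -1.21 ± 0.48, with limma adjusted p of 0.235 and 0.403. Proz, the gene of protein Z, the cofactor of the Serpina10 product, had one of -0.09 ± 0.32.

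Of 20 genes of transcription factors and receptors known to act on liver serpin genes or in hormone response of liver, 18 were measured and none passed in limma; 2 had an unadjusted p under 0.05 and the median log2 fold change was -0.28. Il6ra, the gene of the interleukin-6 receptor, read 3.02, 3.66, 3.03 and 13.3 on NaPB replicates 1 to 4, against 14.4, 8.45, 20.5 and 9.51 on the control arrays. Its log2 fold change was -1.43 ± 0.50 (limma adjusted p = 0.308), and without NaPB replicate 4, the only NaPB array inside the control range, it was -1.94 and passed (limma adjusted p = 0.0288). The fit without that array called 1.76% of all genes. Ghr, the growth hormone receptor gene, was lower on every NaPB array, with a highest NaPB value of 41 and a lowest control value of 41.8 (log2 -0.999 ± 0.368, limma adjusted p = 0.348). Foxa3, a forkhead factor of hepatocytes, had a log2 fold change of -0.74 ± 0.36. Hnf4a and Cebpa, regulators of many liver genes, had 0.29 ± 0.26 and -0.54 ± 0.40, and Nr3c1, the receptor of the glucocorticoids that the Serpina6 product carries, had -0.45 ± 0.39.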

How the data were processed

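Per the submitters' processing notes, scans of single-colour arrays were quantified with Agilent Feature Extraction 10.7. The deposited table holds linear spot intensities; each array's 75th percentile lay between 0.952 and 0.974, so they had been scaled by the authors, by a rule not given in the sources used here, as are background correction and flags. Of 62976 features, 31465 carried 1 gene symbol, 31511 none and 0 several; symbols were updated through RefSeq tables (3282 changed), giving 20738 genes. The log2 of these intensities was analysed without pseudocount, filter or added scaling. Each gene was represented by its brightest feature. A diet term was tested by empirical Bayes in limma 3.58.1 (R 4.3.3), two-sided; p was adjusted by Benjamini-Hochberg over every gene and called under 0.05; ± values are limma standard errors. The fit was tested on simulated data. Promoters were read from the RefSeq table and aligned with Biopython 1.88. Figures came from matplotlib 3.10.9 (Python 3.11.15, pandas 2.3.3, numpy 2.4.6). Members, lists and tests were chosen with earlier results of these data known. Genes named beyond the members are the 3 with the smallest p of each list, the genes most like Serpina4-ps1, and others named after their values were seen. Alternatives were other scaling, filter, pseudocount, feature summary, variance model, array weights, a replicate block, a threshold of 0.1 and leaving arrays out.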

Additional observations from a re-analysis of the deposited data

Results flagged for a closer look

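In 6 of 48 groups of 4 arrays (each measured clade A gene on each diet), 1 array lay apart from the rest by more than the 95% critical value of Dixon's test on the log2 scale, a gap that chance gives in about 1 in 20 groups. On the NaPB diet these were Serpina3n on NaPB replicate 4, at 38.1 against 1.67 to 2.48 on the other arrays of the diet, and Serpina3i on the same array, at 20.6 against 1.17 to 1.59. On the control diet, Serpina6 on control replicate 2 read 8.35, against 15.4 to 16.6 on the other control arrays. The remaining 3 were on control replicate 1: Serpina1f at 1.71 (others 0.921 to 0.972), Serpina5 at 0.308 (others 0.460 to 0.465) and Serpina16 at 0.0619 (others 0.171 to 0.188), the last of these at the floor of its array. The rate of 1 in 20 is for independent groups, while these 48 share the same 8 arrays. The share flagged by this rule over all genes was not counted, so the 6 groups are not read as an excess in this family.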

How the results depend on the processing

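The log2 fold change of Serpina4-ps1 kept its direction under all 18 alternatives, between -6.10 and -4.80, the smallest difference with a pseudocount of 1. Serpina6 kept its direction under all 18, between 1.93 and 2.76; it passed under quantile normalization, with dim genes left out, with a variance trend, with array weights, without NaPB replicate 4 and with control replicate 1 and NaPB replicate 4 both left out. Under each of these, and at a threshold of 0.1, the count of members called was 1 instead of 0; it ran from 0 to 1 with 1 array left out. Serpina1c reversed under quantile normalization (0.0107), with array weights (0.0611) and with both of those arrays left out (0.15). Serpina10, between -0.14 and 0.37 with 1 array left out, reversed without NaPB replicate 4 (-0.14) and with both left out (-0.00053). The other clade A genes had 1 call under quantile normalization (Serpina7), with dim genes left out, with the variance trend and with both arrays left out (Serpina9 each time), 2 with a pseudocount of 1 (Serpina7 and Serpina11), and 3 with array weights and at a threshold of 0.1 (Serpina7, Serpina9 and Serpina11), and from 0 to 1 with 1 array left out. The partner list had 1 call under quantile normalization (F11). The regulators had 1 under quantile normalization (Ghr), and with array weights or both arrays left out (Il6ra), and from 0 to 1 with 1 array left out. Serpins of other clades had none under any alternative. Among all genes 209 were called. The count was 357 under quantile normalization, 221 with dim genes left out, 172 with a pseudocount of 1 and 264 with the variance trend. It was 812 with array weights, 364 at a threshold of 0.1, 570 with both arrays left out and 135 with the replicate block. With 1 array left out it lay between 88 (NaPB replicate 1 dropped) and 365 (NaPB replicate 4 dropped), and was 107 with NaPB replicate 2 dropped. The cause of these changes was not tested. The replicate numbers were not taken to pair the arrays: deviations of same-numbered arrays correlated at 0.23, -0.29, 0.04 and 0.23, and 1 of 4 NaPB arrays correlated best with its own number. With the replicate block the members called were 0. Low signal limits Serpina3j, Serpina5, Serpina7, Serpina12 and Serpina16, which read below 1 on every array, and Serpina3a and Serpina9, which did so on every NaPB array. It also limits Serpina4-ps1 on NaPB replicate 1, at 0.323.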
